A study of Mus musculus with 12 samples.

Results

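The data described here are the CpG cytosines of a targeted intergenic locus on mouse chromosome 5, distal to Klf3. The members are all CpG cytosines at chr5:64987289-64987661 (mm9, 373 bp) that had 10 or more read-outs in every one of the 12 samples. There were 26 of them, of 384 CpG cytosines in the 14 targeted loci, and they formed 13 CpGs that were covered on both strands. In the gene annotation of the same build no gene overlapped the interval. The nearest annotated gene is the miRNA AC122043.1, 51.2 kb away. Klf3 (chr5:65194628-65221368, plus strand, ENSMUSG00000029178.7) starts 207.0 kb downstream and is the nearest protein-coding gene, and Tbc1d1 ends 244.6 kb on the other side. The name of the locus gives its position only, since no expression of Klf3 was measured in these samples.

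Both genotypes are v6.5 mouse embryonic stem cells grown with serum and leukaemia inhibitory factor. The v6.5 group is the parental wild type, although the titles of its samples also carry the word knock-down. The Tet2kd group was made from the same line by electroporation of a vector expressing a short hairpin RNA against Tet2, selection with puromycin and picking of clones, so that the genotypes also differ in selection and clonal history. There were 3 independent cultures per genotype. The DNA of each was split for BS-seq and oxBS-seq, which gave 4 groups of 3 samples. Which clone, or how many clones, the Tet2kd cultures came from was not given in the sources used here, and the Tet2 transcript was not analysed here.

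DNA methylation places a methyl group on the cytosine of a CpG and is copied to the new strand by DNMT1 after replication. TET2 is a dioxygenase that oxidizes 5-methylcytosine (5mC) to 5-hydroxymethylcytosine (5hmC) and further products, from which unmodified cytosine can be regained. Klf3 encodes a Krüppel-like zinc finger factor known mainly as a transcriptional repressor. In BS-seq an unmodified cytosine is read as T and both 5mC and 5hmC as C. The further oxidation products 5-formylcytosine (5fC) and 5-carboxylcytosine (5caC) are read as T as well. In oxBS-seq an oxidation step comes before the bisulfite, after which 5hmC reads as T too and the remaining C read-outs stand mainly for 5mC. The C share of a cytosine is the percentage of C among its C and T read-outs.

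The sequence is shown because the spacing of the CpGs orders the results. It is the plus strand of chr5:64987357-64987566 (mm9, 210 bases), which contains all members, and each CpG is in capitals.
Members: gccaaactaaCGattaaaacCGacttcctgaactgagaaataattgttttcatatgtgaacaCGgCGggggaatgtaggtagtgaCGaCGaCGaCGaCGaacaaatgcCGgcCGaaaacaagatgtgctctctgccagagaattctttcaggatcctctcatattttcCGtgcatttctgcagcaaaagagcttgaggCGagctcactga
Of the 13 CpGs, 4 precede a tandem repeat, 5 lie in it 3 bp apart, and 4 follow it. The repeat, at chr5:64987441-64987455, consists of 5 ACG units.
Repeat: aCGaCGaCGaCGaCG
The first CpG is at 64987367 and the last 188 bp further. In the rest of the text a CpG is named by the position of its plus-strand cytosine, and the cytosine of the minus strand is 1 base further.

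Genomic read-outs ranged from 4505229 to 18096597 per sample, and those on the members from 5389 (v6.5 oxBS-seq replicate 2) to 52705 (v6.5 oxBS-seq replicate 1). The median coverage of a member in a sample was 883.5. Coverage was uneven: 7 minus-strand members, from 64987443 to 64987470, had between 43 and 344 read-outs, whereas the other 19 had between 216 and 3180. At 43 read-outs, a C share of 48.8% (21 C read-outs) has a 95% Wilson interval from 34.6% to 63.2%. Intervals of this kind cover counting error only, because PCR read-outs carried no molecular identifiers. In the spike-in controls the mean C share of the 26 unmodified cytosines was at most 0.401% in a sample. Single control cytosines reached 0.623%. The fitted oxidation efficiency of replicates 1, 2 and 3 was 0.778, 0.472 and 0.743 for v6.5. For Tet2kd it was 0.625, 0.545 and 0.486, all within the v6.5 range. The paper describes a higher efficiency for the knock-down cells, an order these values do not show. Where oxidation is incomplete, some 5hmC still reads as C in oxBS-seq. The oxBS-seq C shares were not corrected for this. Its part in the oxBS-seq differences between genotypes was not tested.

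The first question was whether the C share of the locus differed between genotypes. In BS-seq, the mean C share of the 26 cytosines in v6.5 was 62.0%, 61.9% and 65.9% in replicates 1, 2 and 3. In Tet2kd it was 72.2%, 69.9% and 72.8%. All Tet2kd samples lay above all v6.5 samples, and the means were 71.6% ± 1.54 and 63.2% ± 2.30 (SD, n = 3), a difference of 8.39 percentage points. In oxBS-seq the v6.5 samples gave 56.9%, 60.8% and 57.2%. The Tet2kd samples gave 66.3%, 68.0% and 72.5%. These groups did not overlap either, and the difference was 10.6 points (68.9% ± 3.20 against 58.3% ± 2.14, SD, n = 3). The two-sided exact permutation test gave p = 0.1 for each assay, the smallest that 3 against 3 replicates allow, and adjusted p = 0.25 over the 10 exact tests of the locus. The difference was also seen in both assays on each strand and outside the ACG repeat, between 6.65 points (BS-seq, minus strand) and 10.8 points (oxBS-seq, minus strand).

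**Figure D1:**
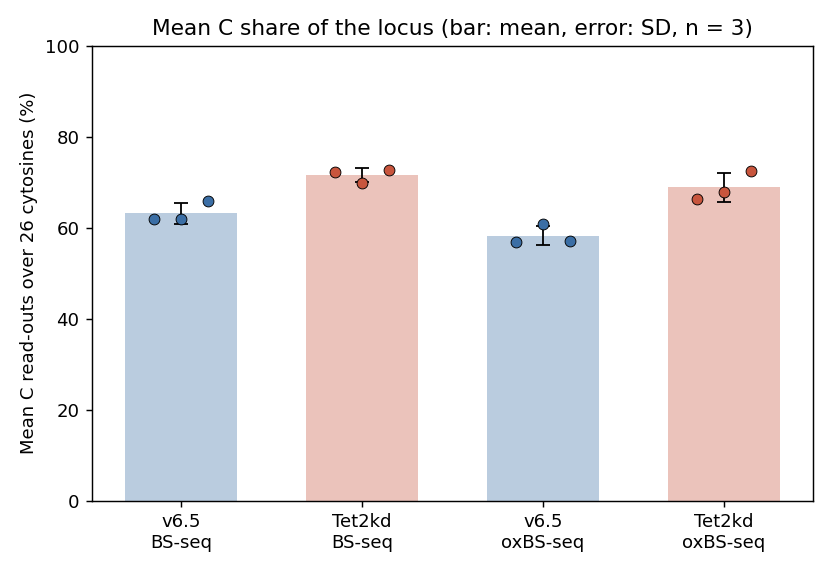
Mean C share over the 26 CpG cytosines (% of C and T read-outs) in each sample (points), with the mean (bar) and SD (error bar, n = 3) of each group. In both assays the 3 Tet2kd points lie above the 3 v6.5 points.

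The C shares differed widely along the locus. The CpGs at 64987367 and 64987377, the first pair, had the lowest C share of the locus. In v6.5 BS-seq they had mean C shares over both strands of 30.3% ± 2.22 and 29.6% ± 3.66 (SD, n = 3). The highest was the CpG at 64987469, with 83.0% ± 4.38. The remaining 10 CpGs were between 57.8% and 78.2% in v6.5 BS-seq. The member with the lowest C share over the BS-seq samples was the plus-strand cytosine at 64987377, with 23.3%, 27.9% and 32.4% in v6.5 against 39.1%, 40.7% and 43.5% in Tet2kd. The highest was the plus-strand cytosine at 64987469, with 83.6%, 83.4% and 87.7% in v6.5 against 86.2%, 87.1% and 89.7% in Tet2kd. The groups are apart at the first of these cytosines and overlap at the second. Across the 26 member means in BS-seq, the SD between cytosines was 17.0 points in v6.5 and 12.96 points in Tet2kd.

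**Figure D2:**
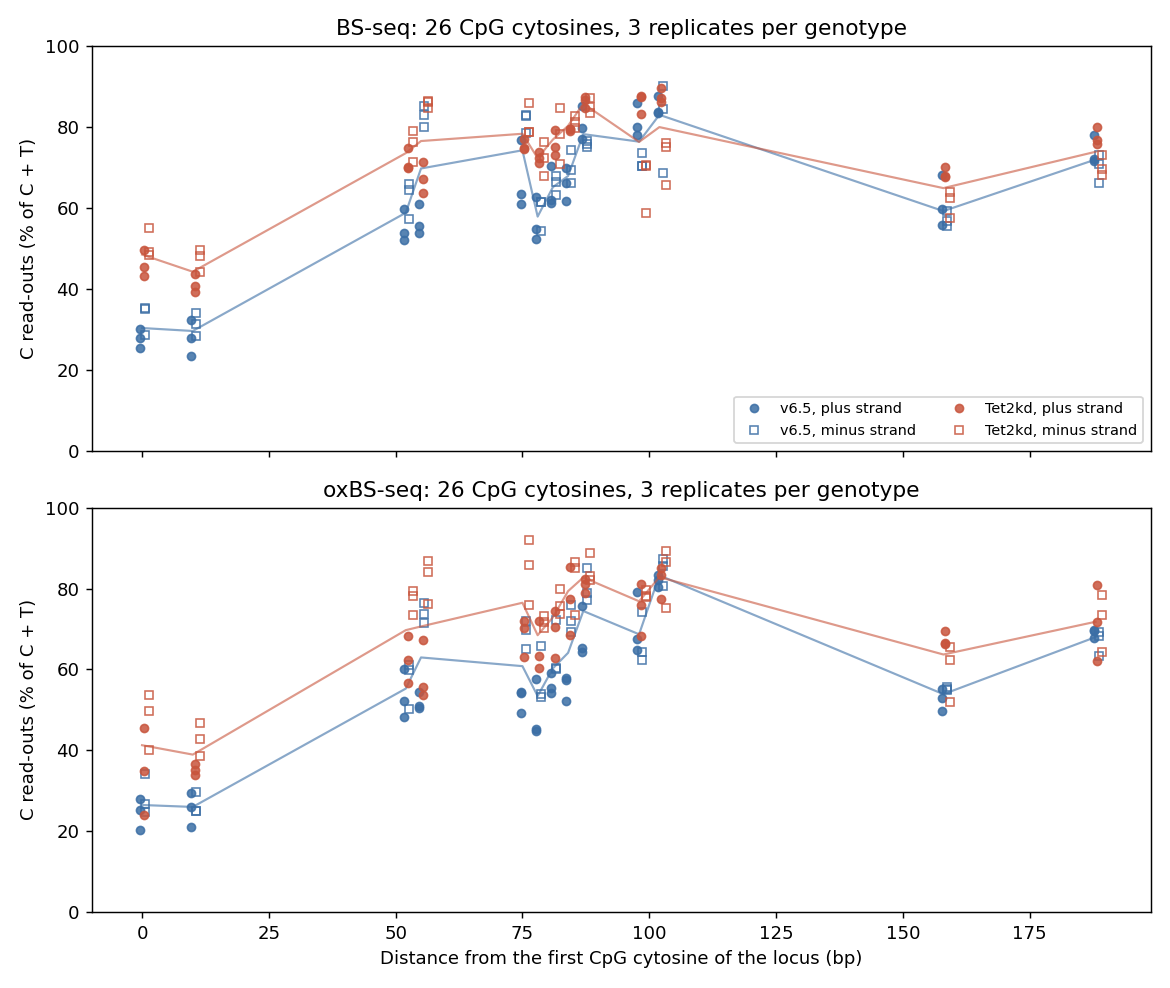
C share (% of C and T read-outs) of every member in every sample against the distance from the first CpG cytosine (bp), for BS-seq (top) and oxBS-seq (bottom). Filled circles are plus-strand and open squares minus-strand cytosines, blue is v6.5, red is Tet2kd, and lines join the means of both strands. The pair on the left is the lowest in both genotypes, and the red and blue points are farther apart on the left than on the right.

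Each cytosine was then tested on its counts with the quasi-likelihood test of edgeR, fitted on all 384 CpG cytosines. In BS-seq 15 of the 26 members had a higher C share in Tet2kd (Benjamini-Hochberg adjusted p under 0.05) and 0 a lower one, against 58.6% of all CpG cytosines that were called higher. In oxBS-seq 9 members were called higher and 0 lower, against 36.2% of all CpG cytosines. Both member counts are close to these background shares. The shares were taken over all targeted loci, including some that the study chose for showing no differential methylation. A total of 7 members were called higher in both assays (background 33.3%) and 17 in at least one (background 61.5%). With limma on log2 ratios 14 members were called higher in BS-seq (background 54.2%) and 9 in oxBS-seq (background 39.3%), and 0 lower in either. At an unadjusted p under 0.05 in edgeR there were 16 higher members in BS-seq (background 61.2%), 13 in oxBS-seq (background 48.2%) and 0 lower ones. By simple order, all 3 Tet2kd replicates exceeded all 3 v6.5 replicates at 14 members in BS-seq (background 56.2%) and at 14 in oxBS-seq (background 49.2%), and the reverse order was found at 0 members in either assay. Fisher's exact test on summed counts, which leaves out the spread between cultures, called 22 members higher and 1 lower in BS-seq (background 73.2% higher) and 23 higher in oxBS-seq (background 75.8%). At an adjusted p under 0.01, edgeR called 9 members higher in BS-seq, against 46.6% of all CpG cytosines. With all 2428 cytosines, most of them outside CpGs, in the edgeR fit, 0 members were called in BS-seq (4.16% of all cytosines) and 0 in oxBS-seq (0.00%), with 13 and 2 members at an unadjusted p under 0.05 (13.9% and 7.37% of all cytosines). The edgeR count in oxBS-seq varied when single libraries were left out. It was 2, 7 and 5 without v6.5 replicates 1, 2 and 3. Without Tet2kd replicates 1, 2 and 3 it was 11, 9 and 6. No share over all CpG cytosines was taken for these smaller fits.

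The median member difference was 10.0 points in BS-seq, against 5.94 points over all CpG cytosines, and 10.98 against 7.61 points in oxBS-seq. On the scale of the log2 odds ratio of C against T read-outs the order was reversed. The medians were 0.74 for the members and 0.90 for all CpG cytosines in BS-seq, and 0.81 and 0.85 in oxBS-seq. All CpG cytosines include 64 at chrX:7476281-7476697, a locus with mean BS-seq C shares of 0.227% in v6.5 and 0.727% in Tet2kd. Near this floor a small difference in points can be a large odds ratio. The part of this locus in the medians was not tested.

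In BS-seq the called members all lay in the first 9 CpGs, before the repeat or in it. The segments were compared after their values were seen, and no test was made between them. Before the repeat, 7 of 8 members were called higher in BS-seq, and in the repeat 8 of 10. After it, 0 of 8 members were called in BS-seq. The share over all CpG cytosines was 58.6%. In oxBS-seq the counts in the same order were 3 of 8, 5 of 10 and 1 of 8, against 36.2% of all CpG cytosines. The mean BS-seq C share of the 4 CpGs before the repeat was 44.3%, 46.8% and 50.1% in v6.5 against 60.9%, 58.9% and 62.1% in Tet2kd, a difference of 13.6 points. In the repeat it was 68.0%, 65.8% and 72.1% in v6.5 against 79.4%, 77.0% and 79.6% in Tet2kd, a difference of 10.0 points. After the repeat it was 72.02%, 71.95% and 73.9% in v6.5 against 74.4%, 71.9% and 74.9% in Tet2kd, where the groups overlapped and the means differed by 1.12 points. In oxBS-seq the corresponding differences were 12.5, 13.4 and 5.33 points. After the repeat the difference in means was thus 5.33 points in oxBS-seq beside 1.12 points in BS-seq, and the gap between these differences was not tested.

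**Figure D3:**
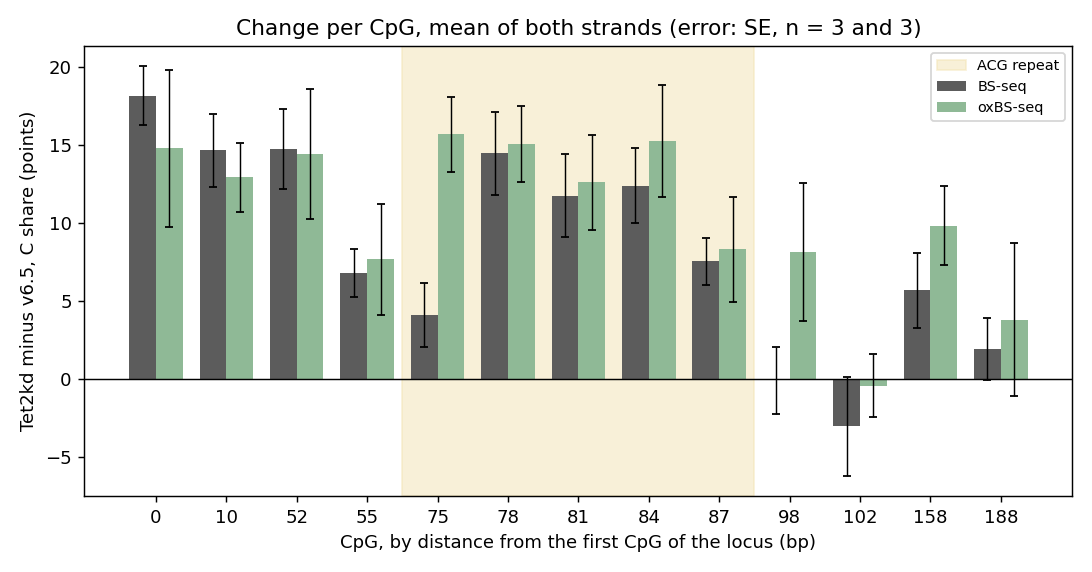
Tet2kd minus v6.5 difference in C share (percentage points) for each of the 13 CpGs as the mean of both strands, ordered by distance from the first CpG (bp), in BS-seq (grey) and oxBS-seq (green). Error bars are the SE of the difference (n = 3 and 3) and the shaded CpGs form the ACG repeat. The bars are between 4.09 and 18.2 points up to the end of the repeat and between -3.03 and 9.80 points after it.

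The first CpG had the largest difference in BS-seq. Its plus-strand cytosine (64987367) gave C shares of 27.8%, 25.2% and 30.1% in v6.5 against 45.4%, 43.1% and 49.6% in Tet2kd. The groups were far apart, with a log2 odds ratio of 1.15 ± 0.16 (SE) and adjusted p = 0.000373 in edgeR. Its minus-strand partner (64987368) gave 28.5%, 35.02% and 35.1% in v6.5 against 55.1%, 48.4% and 49.1% in Tet2kd (log2 odds ratio 1.08 ± 0.18, adjusted p = 0.000929, edgeR). In oxBS-seq the strands differed in what could be called. The plus-strand cytosine gave 27.9%, 25.2% and 20.2% in v6.5 against 23.9%, 45.4% and 34.8% in Tet2kd, where replicate 1 of Tet2kd lay within the v6.5 range, and it was not called (adjusted p = 0.166, edgeR). The minus-strand cytosine gave 24.7%, 34.2% and 26.7% in v6.5 against 40.2%, 49.7% and 53.6% in Tet2kd (log2 odds ratio 1.22 ± 0.32, adjusted p = 0.0147, edgeR).

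At the second CpG both strands were called in BS-seq. Its minus-strand cytosine (64987378) had BS-seq C shares of 28.4%, 31.3% and 34.1% in v6.5 against 49.5%, 44.2% and 48.1% in Tet2kd (log2 odds ratio 0.98 ± 0.16, adjusted p = 0.00074, edgeR). The oxBS-seq C shares were 25.05%, 29.7% and 24.9% in v6.5 against 38.5%, 46.7% and 42.9% in Tet2kd, so that the groups were apart in both assays. Its plus-strand partner, the lowest member described above, was called in BS-seq (log2 odds ratio 0.89 ± 0.19, adjusted p = 0.00348, edgeR) and just missed the threshold in oxBS-seq (0.68 ± 0.25, adjusted p = 0.0584, edgeR).

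The third CpG, 52 bp from the first, started from a higher level and differed by a like amount. On the plus strand (64987419) the BS-seq C shares were 53.8%, 51.9% and 59.7% in v6.5 against 69.7%, 70.0% and 74.7% in Tet2kd (log2 odds ratio 1.04 ± 0.17, adjusted p = 0.000944, edgeR). On the minus strand (64987420) the oxBS-seq C shares were 50.3%, 61.1% and 59.9% in v6.5 against 73.4%, 78.1% and 79.5% in Tet2kd. This cytosine had the smallest adjusted p of the members in oxBS-seq (log2 odds ratio 1.34 ± 0.29, adjusted p = 0.00693, edgeR), and at the stricter threshold of 0.01 it was the single member called in that assay, against 18.2% of all CpG cytosines.

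In the repeat, 2 plus-strand cytosines were among the 6 members with the largest BS-seq difference. The one at 64987445 gave 52.4%, 54.8% and 62.8% in v6.5 BS-seq against 72.3%, 71.0% and 73.8% in Tet2kd BS-seq (log2 odds ratio 1.01 ± 0.18, adjusted p = 0.0015, edgeR). The one at 64987451 gave 66.2%, 61.6% and 69.8% in v6.5 against 78.9%, 79.4% and 79.6% in Tet2kd (log2 odds ratio 0.98 ± 0.16, adjusted p = 0.000806, edgeR). Both were called in oxBS-seq as well. The cytosine at 64987451 had the largest oxBS-seq difference of the locus, 21.2 points, with 52.2%, 57.5% and 57.9% in v6.5 against 68.4%, 77.5% and 85.2% in Tet2kd. The 3 Tet2kd values are spread over a wider range than the v6.5 values but do not meet them.

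At the other end, the CpGs at 64987465 and 64987469 differed little in BS-seq. The mean of both strands was 76.3% ± 2.04 in v6.5 and 76.3% ± 3.10 in Tet2kd at the first, and 83.0% ± 4.38 against 79.9% ± 3.32 at the second (SD, n = 3). On the minus strand of these CpGs the Tet2kd minus v6.5 differences of the BS-seq means were -4.86 and -8.86 points, the lowest of the locus, and neither was called (adjusted p = 0.425 and 0.234, edgeR). Both cytosines are among the 7 thinly covered members. The minus-strand cytosine at 64987470 gave 90.0%, 84.5% and 68.7% in v6.5 against 75.0%, 65.5% and 76.1% in Tet2kd, so that the groups overlapped. Of the 7 thinly covered members 4 were called in BS-seq and 0 in oxBS-seq, against 11 and 9 of the other 19. Over all CpG cytosines the shares were 58.6% and 36.2%. The part of coverage in these counts was not tested. The last CpGs of the locus, at 64987525 and 64987555, had 1 called member between them, the plus-strand cytosine at 64987525 in oxBS-seq. It gave 52.9%, 55.0% and 49.7% in v6.5 against 66.4%, 66.4% and 69.5% in Tet2kd (adjusted p = 0.013, edgeR).

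The strands of a CpG did not always have the same C share. The minus strand exceeded the plus strand in all 12 samples at 3 of the 13 CpGs, 64987419, 64987422 and 64987442, and at no CpG was it lower in all 12. The largest gap was at 64987422, the partner of a CpG 3 bp before it. There the minus strand was on average 22.4 points higher, with a range over samples from 13.2 to 31.4 points. In v6.5 BS-seq its plus-strand cytosine gave 55.5%, 53.7% and 61.0%, and its minus-strand cytosine 80.01%, 85.2% and 82.9%. In Tet2kd BS-seq the plus strand gave 63.5%, 67.2% and 71.3% and the minus strand 86.0%, 86.3% and 84.5%. The plus strand was called higher in Tet2kd (adjusted p = 0.0117, edgeR) and the minus strand was not (adjusted p = 0.142). Over the 13 CpGs the median absolute strand difference was 4.69 points, and over the 157 CpGs of the other loci covered on both strands it was 1.81 points. Among those 157, the sign was the same in all 12 samples at 8. The other loci had mean v6.5 BS-seq C shares from 0.227% to 94.2%, against 63.2% here. Near either end of the scale the strands have little room to differ, and no comparison was made at matched levels. Coverage differed between strands, and its part in these differences was not tested.

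The second question was how much of the C share was removed by oxidation, which is the read-out of 5hmC. The mean C share of the locus in v6.5 was higher in BS-seq than in oxBS-seq by 5.02, 1.10 and 8.73 points in replicates 1, 2 and 3. In Tet2kd it was higher by 5.90, 1.92 and 0.35 points. All 6 differences were positive, with means of 4.95 ± 3.82 points in v6.5 and 2.72 ± 2.86 in Tet2kd (SD, n = 3). The ranges overlapped, and a two-sided exact permutation test of the difference between genotypes gave p = 0.6. Within each genotype a two-sided permutation test by exact sign flips gave p = 0.25, the smallest that 3 pairs allow. Divided by the oxidation efficiency of the replicate, the differences were 6.45, 2.33 and 11.8 points in v6.5 against 9.45, 3.53 and 0.719 points in Tet2kd, so that their order within a genotype did not change.

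No single member was called higher in BS-seq than in oxBS-seq by edgeR with a replicate block. The counts were 0 of 26 in v6.5, against 4.43% of all CpG cytosines, and 0 of 26 in Tet2kd, against 1.30%. At an unadjusted p under 0.05 there were 8 members in v6.5 (background 27.1%) and 3 in Tet2kd (background 9.90%). limma called 0 in each, against 0.00% of all CpG cytosines. Fisher's exact test on summed counts called 17 in v6.5 (background 59.4%) and 15 in Tet2kd (background 58.6%), and 2 Tet2kd members in the other direction. With members and background limited to cytosines of at least 100 read-outs in every sample, edgeR called 5 of 19 members in v6.5 (background 24.9%). BS-seq was above oxBS-seq in all 3 replicates at 13 members in v6.5 (background 48.7%) and at 10 in Tet2kd (background 29.9%). Whether the difference between assays differed between genotypes was tested with an interaction term in edgeR, which called 0 of 26 members and 0.00% of all CpG cytosines. At an unadjusted p under 0.05 in edgeR there were 0 members, against 31 of all 384 CpG cytosines (8.07%).

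The 3 members with the largest mean difference between assays were plus-strand cytosines of the repeat or next to it. At 64987465 the C share was higher in BS-seq by 12.6, -1.24 and 21.1 points in v6.5 against 14.9, 11.3 and 6.49 points in Tet2kd. At 64987442 the differences were 8.96, 11.7 and 22.6 points in v6.5 against 2.89, 11.5 and 6.90 points in Tet2kd. At 64987454 they were 14.3, 1.203 and 21.0 points in v6.5 against 3.62, 7.90 and 5.06 points in Tet2kd. Since these cytosines were picked by this same difference, its mostly positive sign at them is no separate result. Among their values v6.5 replicate 3 gave the largest at each cytosine. The member with the lowest mean difference was the thinly covered minus-strand cytosine at 64987470. There it was 9.29, -2.78 and -16.9 points in v6.5 against -11.7, -23.7 and 0.844 points in Tet2kd.

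The counts of both assays and the controls were combined with the Lux model, which estimates the proportions of unmodified C, 5mC and 5hmC per cytosine and replicate. What is called unmodified C here includes any 5fC and 5caC, which these assays cannot tell apart from it. The mean 5mC proportion of the locus was 55.1%, 54.1% and 52.9% in v6.5 against 61.6%, 61.8% and 66.5% in Tet2kd. These groups did not overlap (54.0% ± 1.11 against 63.3% ± 2.74, SD, n = 3), with a difference of 9.29 points and an exact permutation p = 0.1. The unmodified proportion was 36.9%, 36.9% and 33.5% in v6.5 against 27.02%, 28.4% and 26.2% in Tet2kd, without overlap, and its mean fell by 8.57 points. The 5hmC proportion was 8.01%, 8.99% and 13.7% in v6.5 against 11.4%, 9.81% and 7.31% in Tet2kd. It overlapped between genotypes, with means of 10.2% ± 3.03 and 9.51% ± 2.06 (SD, n = 3) and an exact permutation p = 0.8. The difference of -0.719 points turned to 1.01 points without v6.5 replicate 3 and to 0.378 points without Tet2kd replicate 3. Its direction thus rested on single replicates. The model allows no negative 5hmC and its prior draws replicate proportions away from the lower end, so small values can be raised. The assay differences divided by oxidation efficiency averaged 6.85 points in v6.5 and 4.565 points in Tet2kd. In Tet2kd replicate 3, with 7.31% 5hmC here, the assays differed by 0.35 points.

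**Figure D4:**
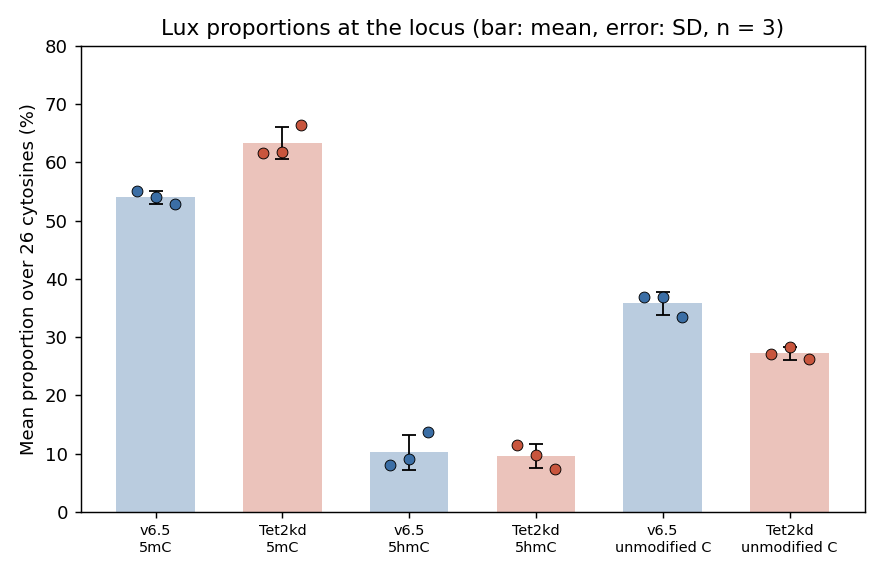
Mean Lux proportion (%) of 5mC, 5hmC and unmodified C over the 26 CpG cytosines, per replicate (points), with mean (bar) and SD (error bar, n = 3). The replicates of the genotypes are separate for 5mC and unmodified C and overlap for 5hmC.

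At the level of single cytosines, the 5mC estimate shared by the replicates was higher in Tet2kd at 23 of 26 members (background 83.1%), and by more than 10 points at 13 (background 42.7%). The largest rise in the estimate was at the plus-strand cytosine at 64987451, from 54.2% to 79.4%, where the 5hmC estimate was 12.8% in v6.5 and 3.07% in Tet2kd. At the plus-strand cytosine at 64987442, which had the highest 5hmC estimate of the members in v6.5, 5hmC was 19.7% in v6.5 and 9.76% in Tet2kd, and 5mC was 48.0% and 67.2%. At the plus-strand cytosine at 64987367 the estimates differed in another way: 5mC was 18.6% in v6.5 and 21.5% in Tet2kd, 5hmC was 3.74% and 12.8%, and unmodified C was 77.6% and 65.7%. The 5hmC estimate was lower in Tet2kd at 15 of the 26 members and higher at the others, and no share over all CpG cytosines was taken for this count. The median 5hmC estimate of the members was 5.97% in v6.5 and 5.48% in Tet2kd. Over all CpG cytosines it was 3.98% and 3.30%. Posterior SDs of 5mC at the 3 cytosines named above were between 9.16 and 14.3 points. Those of 5hmC were between 3.44 and 12.8 points, of similar size to the 5hmC estimates. At 64987367 they were 3.94 points in v6.5 and 10.9 points in Tet2kd. The Bayes factor (BF) for a difference between genotypes, which exceeds 1 where the data favour a difference, was above 1 at 0 of the 26 members, against 7.29% of all CpG cytosines. It ranged from 0.0401 to 0.488 among the members and reached 47.3 elsewhere.

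The locus was then set against the other 13 targeted loci. The study had chosen the loci from antibody-based maps of 5mC and 5hmC, so they are not a random sample. Some were chosen because those maps showed no differential methylation between the genotypes. Per sample, the members' mean C share minus that of the other 358 CpG cytosines was 7.81, 7.52 and 10.6 points in v6.5 BS-seq against 9.10, 6.85 and 9.03 points in Tet2kd BS-seq. The values overlap, and the change of the locus exceeded that of the other CpG cytosines by -0.314 points (exact permutation p = 0.9). In oxBS-seq it did so by 0.761 points (exact permutation p = 0.5). The BS-seq difference between genotypes ranked 7 among the 14 loci, and so did that in oxBS-seq. In BS-seq the loci ranked 1 to 6 differed by 12.2 to 22.4 points. Those ranked 8 to 14 differed by -0.939 to 8.30 points.

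**Figure D5:**
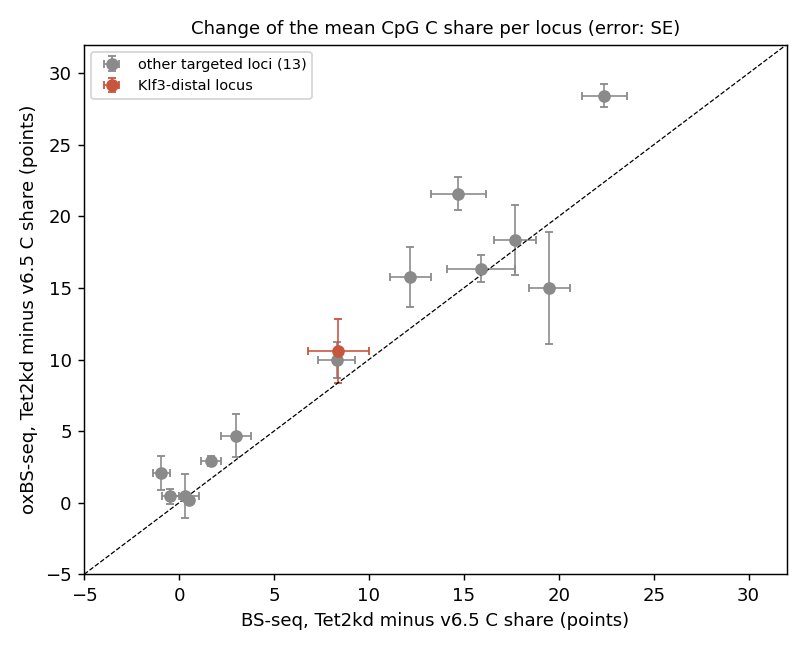
Tet2kd minus v6.5 difference of the mean CpG C share (percentage points) of each of the 14 targeted loci in BS-seq (horizontal) and oxBS-seq (vertical). Error bars are the SE of the difference (n = 3 and 3), the dashed line marks equal differences, and the locus distal to Klf3 (red) lies at 8.39 and 10.6 points, in the middle of the other loci.

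The loci with C shares most like it over the 12 samples were at chr17:45706386-45706820, which overlaps an exon of Hsp90ab1, a cytosolic chaperone gene, and at chr11:3525591-3525968, 23529 bp from the nearest protein-coding gene, Morc2a. Their Euclidean distances over the 12 sample means were 16.4 and 19.4 points. Both differed more between genotypes in BS-seq. The difference at the chr17 locus was 15.9 points, and at the chr11 locus 17.7 points, so that the change of the locus distal to Klf3 was 7.54 and 9.32 points smaller. The exact permutation p of these gaps was 0.1 each, the smallest possible (adjusted p = 0.133 over 4 tests, exact). In oxBS-seq the gaps were 5.74 points (exact p = 0.1) and 7.76 points (exact p = 0.2). The share of CpG cytosines called higher in BS-seq was 96.3% at the chr17 locus and 100% at the chr11 locus, and 57.7% here. With a G and C content of 45.3%, the interval distal to Klf3 was the lowest of the 14 loci, and its observed to expected CpG ratio of 0.679 was the fourth highest.

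The interval also held 133 non-CpG cytosines on the same amplicons. Whether their C read-outs were unconverted cytosines alone was not tested. Their mean BS-seq C share was 0.457%, 0.529% and 0.564% in v6.5 against 0.578%, 0.475% and 0.579% in Tet2kd. The groups overlapped (exact permutation p = 0.5), and the difference of 0.0273 points was small beside the CpG difference. The C share was higher before A than before other bases: the mean over samples was 0.962% at 48 CpA, 0.201% at 31 CpC and 0.3002% at 54 CpT cytosines. The non-CpG cytosine with the highest mean was the minus-strand CpA at 64987431, with 5.08% over the 12 samples and a range from 3.16% to 7.98%. It lies between the CpGs at 64987422 and 64987442.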

How the data were processed

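Targeted amplicons of 12 samples were analysed, each with its own table. The authors removed adapters, aligned paired reads to mm9 and lambda phage DNA with Bismark 0.7.12 and Bowtie2 (both also in the submitters' processing notes), and deposited, without normalization, counts of unconverted (C) and converted (T) read-outs at each cytosine, with mate overlaps counted once. A deposited column of C percent was used as a check only. Positions were raised by 1. Bases, strand and genes came from the mm9 sequence and annotation.

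Of 2708 genomic cytosines, 2428 with at least 10 read-outs in all 12 samples were kept, 384 of them CpG. A locus value is the unweighted mean over members. Locus values were compared by two-sided exact permutation tests (20 assignments, or 8 sign patterns for pairs of assays). Single cytosines were fitted with edgeR 4.0.16 (quasi-likelihood, sample effects, Benjamini-Hochberg over 384), with limma 3.58.1 (log2 ratios with 1 added) and Fisher's exact test as alternatives. Experimental parameters came from 26 C, 35 5mC and 27 5hmC control cytosines. They were held fixed in the Lux model (Dirichlet prior 0.8, gamma prior with shape 2, 1000 draws kept after 1000 warm-up sweeps), sampled with Python 3.11.15, numpy 2.4.6 and numba 0.67.0. The BF is a Savage-Dickey ratio. Both fits were tested on simulated data. The median member coverage of 883.5 gives a 95% Wilson interval from 46.7% to 53.3% at an even split of read-outs. A count of 3 C read-outs is a share of 0.339% there. It is a counting floor and not a detection limit, since the unmodified controls reached a sample mean of 0.401%.

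Per the methods of the paper each DNA was split for both assays. Samples of one genotype and replicate number were taken as parts of one DNA. Their deviations from the group means over 384 CpG cytosines correlated by -0.147 to 0.0505, so the pairing rests on the replicate numbers alone. Named with values in each sample were the 6 members with the largest BS-seq difference among those whose 9 pairings of replicates between genotypes differ one way, 3 likewise for oxBS-seq, the 3 with the largest difference between assays, the lowest and highest member, CpGs covered on both strands, the 2 most similar loci and the highest non-CpG cytosine. Other members named (64987422, 64987466, 64987470 and 64987525) were chosen after their values were seen. The members, lists and rules were chosen with earlier results of these data known. Strand, repeat and some coverage alternatives were added after seeing the data.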

Additional observations from a re-analysis of the deposited data

Results flagged for a closer look

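In 3 of the 133 non-CpG cytosines of the interval, the C share in each of the 12 samples exceeded the highest per-sample mean C share of the 26 unmodified control cytosines, 0.401%. In 2 of them, 64987431 and 64987481, it also exceeded the highest C share of a single control cytosine in any sample, 0.623%. The minus-strand CpA at 64987431 had a mean C share of 5.08%. Its 6 BS-seq samples lay between 3.60% and 6.32%, and its lowest coverage was 341 read-outs. The minus-strand CpA at 64987481 had a mean of 4.82%. It gave 8.87%, 6.78% and 6.73% in v6.5 BS-seq against 6.82%, 3.26% and 5.43% in Tet2kd BS-seq. In oxBS-seq it gave 4.69%, 7.84% and 0.96% in v6.5 against 0.65%, 4.72% and 1.06% in Tet2kd. The lowest of these lay just above the 0.623% of the controls. The lowest coverage of this cytosine was 51 read-outs. Its low values came from deeper samples but still rest on few C read-outs. The plus-strand CpA at 64987632 had a mean of 2.71%, with a range from 0.43% to 6.19%. The genotypes overlapped at the first 2 in BS-seq. At 64987632 the BS-seq values were 1.56%, 1.90% and 2.08% in v6.5 against 3.26%, 3.28% and 4.61% in Tet2kd, while the oxBS-seq values overlapped. No test was made on these cytosines.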

How the results depend on the processing

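The rise of the locus in BS-seq and oxBS-seq and of its 5mC, and the fall of unmodified C, kept their direction under every alternative tried: BS-seq lay between 3.79 (the 2 CpGs in the downstream part of the interval, exact permutation p = 0.3) and 9.91 points (coverage-weighted), oxBS-seq between 6.795 (the same 2 CpGs) and 11.9 points. Without single replicates the 5mC difference was 7.71 to 10.1 points. The 5hmC difference was -1.83 to 1.01 points without single replicates, 0.144 points at a coverage minimum of 100 and 0.751 points on the plus strand. The change against the other CpG cytosines turned at a coverage minimum of 100 (0.221 points in BS-seq and -0.248 in oxBS-seq) and ranged without single replicates from -0.871 to 0.661 points in BS-seq and from -1.01 to 2.21 in oxBS-seq. Coverage-weighted it was -10.1 points in BS-seq and -1.41 in oxBS-seq, both with overlap of the groups. The non-CpG difference was -0.0004 points without CpA and -0.0026 to 0.0618 points without single replicates. The oxBS-seq log2 odds ratio of the plus-strand cytosine at 64987469 ranged from -0.13 to 0.23 without single replicates.

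At a threshold of 0.01, 9 members were called higher in BS-seq and 1 in oxBS-seq, against 46.6% and 18.2% of all CpG cytosines, and 0 in each with all cytosines in the edgeR fit, where non-CpG cytosines outnumber the others. The cause was not tested. Fisher's test called 23 in oxBS-seq, and 17 (v6.5) and 15 (Tet2kd) with BS-seq above oxBS-seq. The latter was 5 in v6.5 at a coverage minimum of 100. Without single samples the BS-seq count was 10 to 19 and the oxBS-seq count 2 to 11. No share over all CpG cytosines was taken for these counts or for those with the replicate block. BF stayed at or under 1 for the members under each alternative run.

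Same-numbered cultures of the genotypes share only a number: the correlations of their deviations over 384 CpG cytosines were 0.0766 to 0.179 for BS-seq and -0.175 to 0.093 for oxBS-seq. With the replicate block, 18 members were called in BS-seq and 6 in oxBS-seq, and the exact sign-flip p was 0.25 for the differences of 8.39 and 10.6 points, 9.29 (5mC) and -8.57 (unmodified C), 1 for -0.719 (5hmC), and 0.75 for -0.314, 0.761 and 0.0273 points. Without it, the assay differences of 4.95 and 2.72 points had exact p = 0.1 and 0.3, and 0 members were called. With 3 replicates per group the exact tests cannot pass 0.05.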
